A study of Homo sapiens with 12 samples.

Results

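Transcripts of 9 enzymes that make asparagine, proline, alanine, glutamate and aspartate, or that feed carbon to them, were examined by RNA-seq in the prostate cancer lines PC3 and DU145. They were ASNS, ALDH18A1, PYCR1, GPT2, GOT1, GOT2, GLUD1, PCK2 and PC, which were taken by gene name from the count table. All 9 were found among its 32077 genes. Both are established human lines that grow without androgen. Cells were plated at 1000000 per well and kept for 48 hours with 2.5 μmol/L pentamidine, an aromatic diamidine drug used against protozoan infections, or with vehicle. The 12 samples fall into 4 groups of 3, namely PC3 vehicle, PC3 pentamidine, DU145 vehicle and DU145 pentamidine. The labels do not say whether the 3 samples of a group came from separate cultures, so the p-values measure the spread between these samples, which may be technical.

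Glutamate and aspartate stand at the crossing of amino acid and energy metabolism. Glutamate dehydrogenase and the aminotransferases move nitrogen between glutamate and the oxoacids of the citric acid cycle, and aspartate made in this way is the substrate of asparagine synthetase. Proline is built from glutamate in the mitochondrion. Several of these genes, ASNS foremost, are known targets of ATF4, the transcription factor of the integrated stress response, which is also known to be activated by mitochondrial stress.

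Total counts ranged from 13514195 to 15131436 per sample. The share of counts on the messenger RNAs encoded by mitochondrial DNA was 3.35% to 3.50% in PC3 vehicle and 0.244% to 0.257% in PC3 pentamidine samples, and 3.82% to 4.04% and 0.205% to 0.213% in DU145. When the mitochondria-encoded genes were left out before scaling, all 36 results for the 9 genes kept their direction and side of the threshold, and no log2 value moved by more than 0.0080. Marker genes were read for each line. Of 4 epithelial markers, the keratins KRT8 and KRT18 were read in all 12 samples, but the adhesion molecules EPCAM and CDH1 had at most 2 and 10 counts in any sample. KRT8 was at 16.1 to 21.4 CPM, the counts scaled to library size, in PC3 and 1814 to 2791 CPM in DU145. CTNNA1, known as deleted in PC3, had 6003 to 8545 counts in the PC3 samples, against 5533 to 5932 in DU145. These markers go against the label PC3, and the near absence of EPCAM and CDH1 goes against the usual picture of both lines. The groups are therefore named here by their labels only, and no comparison between the lines is a check of those labels. The prostate gene KLK3 had at most 2 counts. The leukocyte gene PTPRC had at most 1 count, the endothelial gene PECAM1 at most 10 and the fibroblast gene COL1A1 at most 40, and their summed level was 0.270 to 3.05 CPM.

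Where the genes lie is given on GRCh38, the build named in the submitters' processing notes, with the coordinates of the deposited table. ASNS (ENSG00000070669) lies at chr7:97852118-97872542, ALDH18A1 (ENSG00000059573) at chr10:95605929-95656706 and PYCR1 (ENSG00000183010) at chr17:81932384-81942412. GPT2 (ENSG00000166123) lies at chr16:46884378-46931297, GOT1 (ENSG00000120053) at chr10:99396870-99430624 and GOT2 (ENSG00000125166) at chr16:58707131-58734357. GLUD1 (ENSG00000148672) lies at chr10:87050486-87094866, PCK2 (ENSG00000100889) at chr14:24094053-24110598 and PC (ENSG00000173599) at chr11:66848233-66958376. GPT2 and PCK2 are on the plus strand and the other 7 are on the minus strand.

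RefSeq promoter windows on GRCh38.p14 (250 bases before to 50 after each transcript start) were given for 7 of the 9 genes, all but PYCR1 and GPT2. They were searched on both strands for TGATGNAA, where N is any base, the core of the C/EBP-ATF response element that ATF4 is known to bind. The letters were found in 2 of the 10 windows of these genes, 1 of ASNS and 1 of GOT1. They also stood in 3.62% of the 35116 windows of all genes, so a match describes the sequence and is no evidence of binding. The stretches around both matches are shown because both genes rose in both lines, with the match in capitals, on the gene's strand.
ASNS, chr7:97872458-97872487: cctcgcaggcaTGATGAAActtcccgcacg
GOT1, chr10:99430804-99430833: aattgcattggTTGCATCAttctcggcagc
The ASNS match reads along the gene's own strand and begins 68 bases before the transcript start of its window. The window of another ASNS transcript start held no match. The GOT1 match is the reverse complement and begins 198 bases before the GOT1 transcript start. Both lie within exons of longer transcripts of the same genes in GENCODE release 29. The windows of PCK2, PC, GOT2, GLUD1 and ALDH18A1 held no match, which says only that these letters are not there.

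After pentamidine, PCK2, ASNS, GPT2, GOT1 and PYCR1 rose in both lines, GOT2 and ALDH18A1 fell slightly, and GLUD1 did not pass the test in either line. PC rose in DU145 and did not pass in PC3, and the test of that difference passed. In PC3 cells 7 of the 9 genes passed an adjusted p of 0.05 in edgeR's quasi-likelihood test, 5 higher and 2 lower, and 4 of them also changed by more than 1 on the log2 scale. Among all 13861 genes tested in PC3, 43.4% passed (21.7% higher and 21.7% lower), and 4.75% passed with the fold change. In DU145 cells 8 of the 9 passed, 6 higher and 2 lower, and 2 passed with the fold change. There 34.0% of 14313 genes passed (17.2% higher and 16.8% lower), and 2.03% passed with the fold change. The median log2 fold change of the 9 genes was 0.78 in PC3 and 0.52 in DU145, against 0.0046 and 0.0085 over all genes tested. The samples of pentamidine and vehicle did not overlap for 7 of the 9 genes in PC3 and 8 of 9 in DU145, as for 52.1% and 44.0% of all genes. The 9 genes were chosen with earlier results of these data known. Setting them against all genes, here and below, is therefore a description and no independent evidence.

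**Figure D1:**
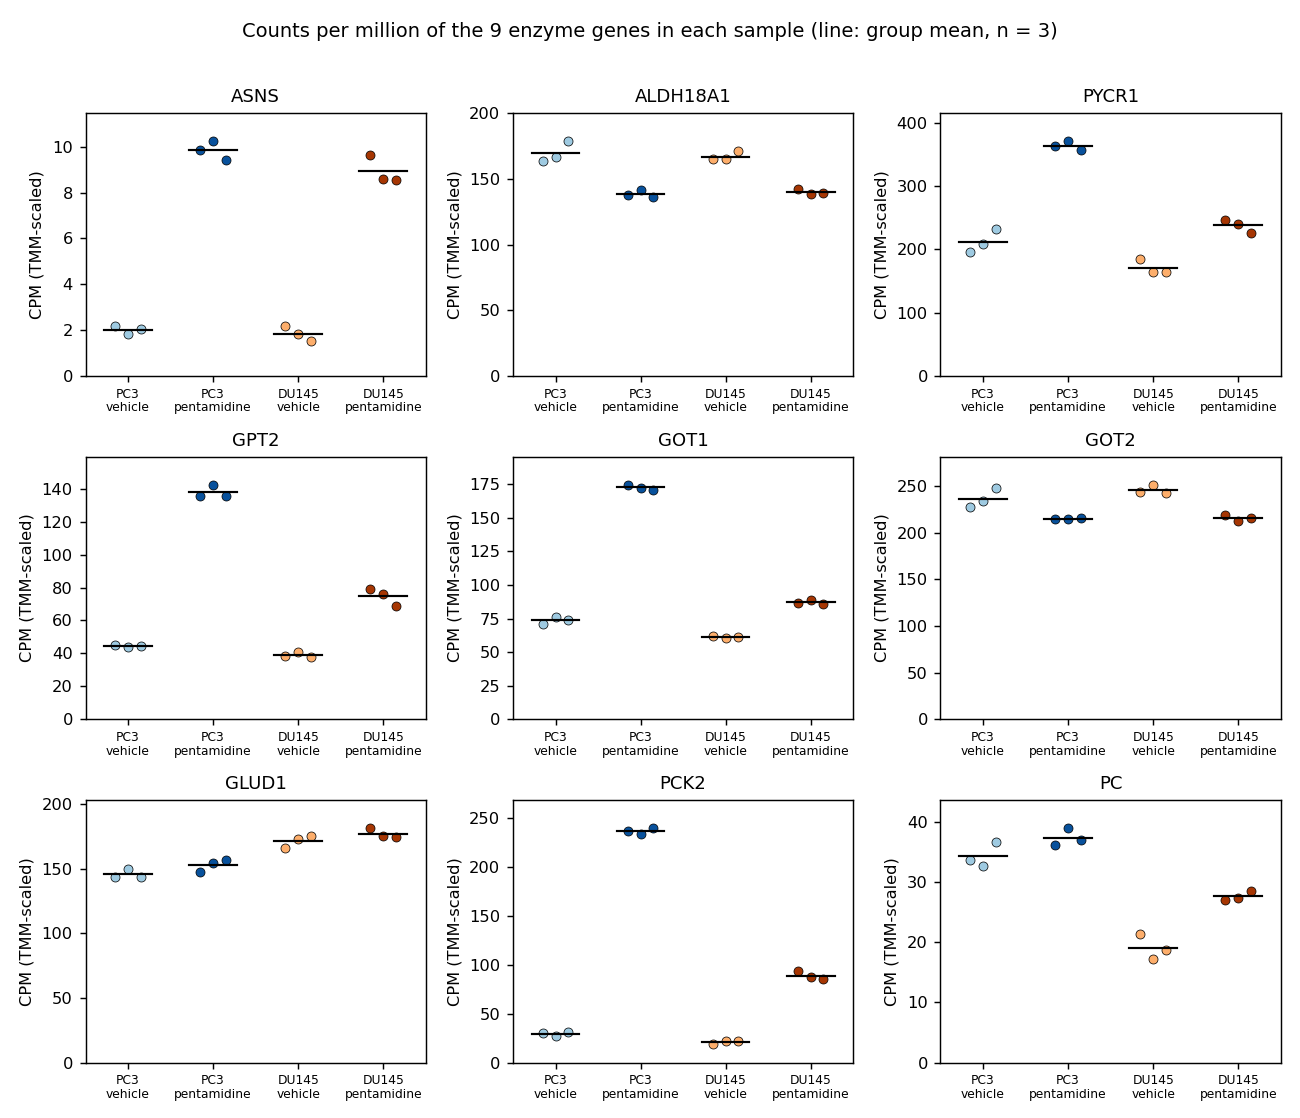
CPM (counts scaled to library size by TMM factors) of each of the 9 genes on the y axis, from 0, in the 4 groups; each point is a sample and each line the mean of 3. PCK2, ASNS, GPT2, GOT1 and PYCR1 stand higher in every pentamidine sample than in every vehicle sample of the same line, whereas the groups of GLUD1 overlap within each line.

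The synthetase of asparagine rose by 2.29 on the log2 scale in both lines, on low counts. ASNS transfers the amide nitrogen of glutamine to aspartate. It had 32, 28 and 28 counts in the PC3 vehicle samples and 146, 144 and 140 with pentamidine, and 29, 26 and 22 against 135, 127 and 123 in DU145. Every pentamidine sample was far above every vehicle sample. On the CPM scale the means were 2.01 ± 0.183 and 9.84 ± 0.394 in PC3 and 1.83 ± 0.324 and 8.93 ± 0.614 in DU145 (SD, n = 3). The log2 fold change was 2.29 in PC3 (SE 0.18, adjusted p = 7.3e-09) and 2.29 in DU145 (SE 0.20, adjusted p = 5.7e-15). The difference between the lines was -0.00046 (95% confidence interval -0.53 to 0.52, adjusted p = 1.00). The interval is wide, and a p that misses the threshold does not show that the rises were equal. The level of ASNS is uncertain. A transcript annotated on the same strand, AC079781.5, covers 1985 of its 4455 exonic bases (44.6%) and 1683 of its 1752 coding bases (96.1%), and only 2.53% of protein-coding genes share a larger part of their exons with another gene. AC079781.5 itself was listed with 0 to 4 counts. How reads in the shared bases were counted is not given in the sources used here, and whether this set the low level was not tested.

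The 2 steps of proline synthesis moved in opposite directions. ALDH18A1 makes the intermediate pyrroline-5-carboxylate from glutamate, and PYCR1 reduces it to proline in the mitochondrion. PYCR1 was at 196, 209 and 232 CPM in PC3 vehicle and 363, 370.3 and 357 CPM in PC3 pentamidine. It was at 184, 164 and 164 CPM in DU145 vehicle and 247, 240.0 and 226 CPM in DU145 pentamidine. The groups did not overlap in either line. The log2 fold change was 0.78 in PC3 (SE 0.059, adjusted p = 1.3e-08) and 0.48 in DU145 (SE 0.039, adjusted p = 7.5e-15). ALDH18A1 ranged from 164 to 179 CPM in PC3 vehicle and from 137 to 142 CPM in PC3 pentamidine, and from 165 to 172 and 139 to 143 CPM in DU145. It fell by 0.29 in PC3 (SE 0.053, adjusted p = 2.9e-04) and by 0.25 in DU145 (SE 0.038, adjusted p = 4.2e-07) on the log2 scale. Per kilobase of exon, with all annotated exons of a gene merged, PYCR1 stood at 1.63 ± 0.069 times ALDH18A1 in PC3 vehicle. With pentamidine it stood at 3.42 ± 0.018 times. In DU145 the ratio was 1.34 ± 0.11 and 2.21 ± 0.085 (SD, n = 3). The lowest pentamidine sample of each line was above its highest vehicle sample.

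The isoenzyme PYCR3 fell by 0.46 on the log2 scale in PC3 (SE 0.079, adjusted p = 1.4e-04). In DU145 its change was 0.058 (SE 0.063, adjusted p = 0.52), and the test of the difference between the lines gave 0.52 (SE 0.10, adjusted p = 3.0e-04). PYCR1 shares 408 exonic but no coding bases with MYADML2 on its strand, which had at most 16 counts.

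Of the 3 aminotransferases among the 9 genes, GPT2 and GOT1 rose in both lines. GPT2, the mitochondrial alanine aminotransferase, makes 2-oxoglutarate and alanine from glutamate and pyruvate. It was at 45.2, 43.7 and 44.6 CPM in PC3 vehicle and 135, 142 and 136 CPM in PC3 pentamidine. It was at 38.1, 40.9 and 37.5 CPM in DU145 vehicle and 79.2, 75.9 and 68.9 CPM in DU145 pentamidine. No sample of one treatment reached the range of the other. The gain on the log2 scale was 1.64 in PC3 (SE 0.056, adjusted p = 2.8e-13) and 0.95 in DU145 (SE 0.058, adjusted p = 8.7e-20), just under the fold threshold in the latter. The cytosolic isoenzyme GPT was near the limit of the counts, with 7 to 11 counts in PC3 vehicle and 15 to 27 in PC3 pentamidine (log2 fold change 1.28, SE 0.38, adjusted p = 0.0095). In DU145 it had 6 to 8 and 8 to 25 counts, too few to enter the test.

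GOT1 and GOT2 are the cytosolic and mitochondrial aspartate aminotransferases of the malate-aspartate shuttle, which carries reducing equivalents into the mitochondrion. GOT1 was at 71.0, 75.8 and 74.3 CPM in PC3 vehicle and 175, 172 and 171 CPM in PC3 pentamidine. It was at 61.9, 60.4 and 61.1 CPM in DU145 vehicle and 86.9, 88.4 and 86.1 CPM in DU145 pentamidine. The groups were far apart against a spread of a few CPM. The log2 fold change was 1.23 in PC3 (SE 0.053, adjusted p = 6.5e-12) and 0.52 in DU145 (SE 0.048, adjusted p = 5.0e-13). GOT2 ranged from 228 to 248 CPM in PC3 vehicle and 214 to 216 CPM in PC3 pentamidine, and from 243 to 251 and 212 to 219 CPM in DU145. It fell by 0.18 on the log2 scale in DU145 (SE 0.034, adjusted p = 2.3e-05). In PC3 the fall of 0.13 (SE 0.050, adjusted p = 0.041) did not hold without PC3 vehicle replicate 2 or 3 or without any 1 of the PC3 pentamidine replicates, where the adjusted p ranged from 0.059 to 0.13. The cytosolic form moved towards the level of the mitochondrial form. GOT1 per kilobase was 0.348 ± 0.013 of GOT2 in PC3 vehicle and 0.897 ± 0.011 with pentamidine, and 0.278 ± 0.0084 and 0.451 ± 0.012 in DU145 (SD, n = 3).

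**Figure D2:**
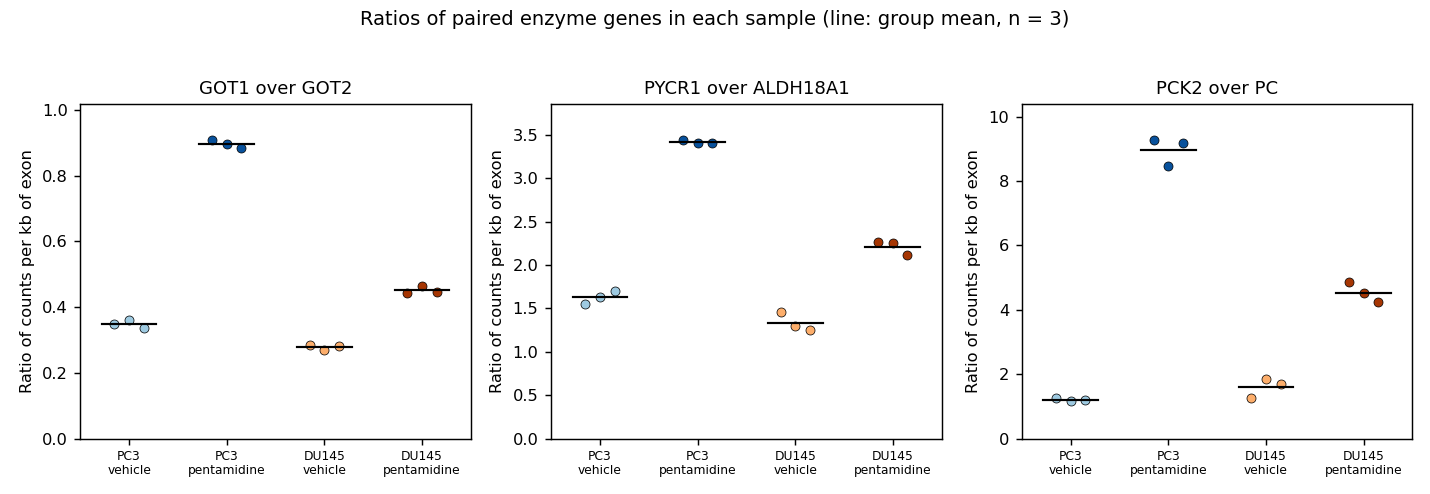
Ratio of counts per kilobase of exon, on the y axis from 0, for GOT1 over GOT2, PYCR1 over ALDH18A1 and PCK2 over PC in the 4 groups; points are samples and lines the means of 3. Each ratio is higher in every pentamidine sample than in every vehicle sample of the same line, and GOT1 over GOT2 rises from 0.348 to 0.897 in PC3.

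GLUD1, which interconverts glutamate and 2-oxoglutarate in the mitochondrion, did not pass the test after pentamidine. It ranged from 143 to 150.2 CPM in PC3 vehicle and 148 to 157 CPM in PC3 pentamidine, and from 166 to 175 and 175 to 182 CPM in DU145. The ranges overlapped in both lines. Its log2 fold change was 0.074 in PC3 (95% confidence interval -0.034 to 0.18, adjusted p = 0.26) and 0.048 in DU145 (-0.026 to 0.12, adjusted p = 0.33). In DU145 it passed in 3 alternative settings, library size alone and both filtered limma fits, at 0.098 to 0.099 (adjusted p = 0.033 to 0.038). Its intronless copy GLUD2 had 19 to 35 counts in every sample and did not pass either (adjusted p = 0.88 and 0.57). Reads of this near-identical pair can be split by the counting, so the level of GLUD2 is uncertain.

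PCK2 and PC act where the citric acid cycle meets pyruvate and phosphoenolpyruvate. PCK2, the mitochondrial phosphoenolpyruvate carboxykinase, draws oxaloacetate out of the cycle, and PC, pyruvate carboxylase, makes it. PCK2 had the highest fold change of the 9 genes in PC3. It was at 29.8, 26.7 and 31.2 CPM in PC3 vehicle and 237, 233 and 239.6 CPM in PC3 pentamidine. It was at 18.9, 22.5 and 22.4 CPM in DU145 vehicle and 93.1, 87.2 and 85.2 CPM in DU145 pentamidine. Its log2 fold change was 3.02 in PC3 (SE 0.062, adjusted p = 1.7e-16), an 8.13-fold rise, and 2.06 in DU145 (SE 0.066, adjusted p = 4.0e-33), a 4.16-fold rise. The cytosolic isoenzyme PCK1 had 1 count in 1 PC3 pentamidine sample and none in the other 11 samples. A count of 0 allows up to 3 counts in a sample.

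PC was at 33.7, 32.7 and 36.6 CPM in PC3 vehicle and 36.2, 38.9 and 37.0 CPM in PC3 pentamidine, which overlap. It was at 21.3, 17.2 and 18.6 CPM in DU145 vehicle and 27.1, 27.3 and 28.5 CPM in DU145 pentamidine, which do not. On the log2 scale PC changed by 0.13 in PC3 (95% confidence interval -0.027 to 0.28, adjusted p = 0.17) and 0.54 in DU145 (SE 0.084, adjusted p = 5.6e-07). PCK2 per kilobase was 1.21 ± 0.048 times PC in PC3 vehicle and 8.97 ± 0.43 times with pentamidine, and 1.60 ± 0.31 and 4.54 ± 0.32 times in DU145 (SD, n = 3). LRFN4 overlaps PC on the opposite strand by 621 exonic bases and had 574 to 822 counts. SHLD2 overlaps GLUD1 likewise by 464 bases with 1057 to 1468 counts. Without knowing whether strand was used in counting, reads in these stretches cannot be told apart.

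**Figure D3:**
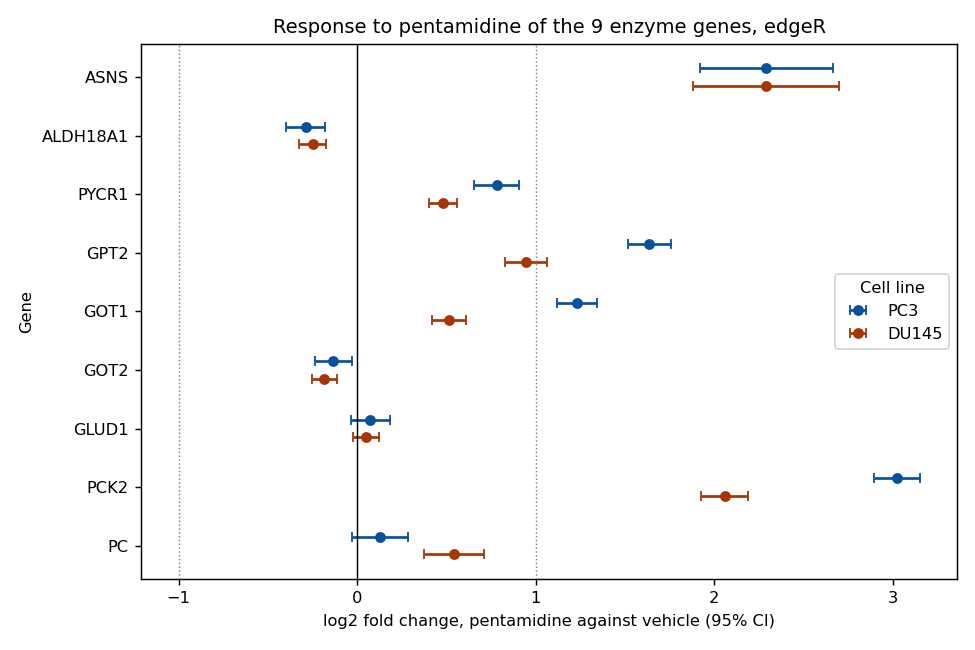
Log2 fold change of pentamidine against vehicle on the x axis for each of the 9 genes, in PC3 (blue) and DU145 (brown); points are edgeR estimates from 3 against 3 samples, bars their 95% confidence intervals, and dotted lines a log2 fold change of 1 in each direction. PCK2, GPT2, GOT1 and PYCR1 lie further right in PC3, PC lies further right in DU145, and ASNS is at 2.29 in both.

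Whether the response differed between the lines was tested as the interaction of line and treatment over all 12 samples. Of the 9 genes, 5 passed, 4 with a smaller rise in DU145 and 1 with a larger, where 20.4% of 15226 genes passed (10.2% with a smaller and 10.3% with a larger value in DU145). The rise of PCK2 was smaller in DU145 by 0.96 on the log2 scale (-0.96, SE 0.092, adjusted p = 1.0e-08), that of GOT1 by 0.72 (-0.72, SE 0.066, adjusted p = 4.2e-09) and that of GPT2 by 0.69 (-0.69, SE 0.082, adjusted p = 3.6e-07). For PYCR1 the difference was -0.30 (SE 0.076, adjusted p = 0.0048), which did not pass with limma on log2(CPM + 1) without a filter (-0.23, adjusted p = 0.11). PC rose more in DU145, by 0.42 (SE 0.11, adjusted p = 0.0076). For ALDH18A1 the interval of the difference was -0.087 to 0.17, for GOT2 -0.17 to 0.067 and for GLUD1 -0.15 to 0.10, and these did not pass.

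Without the drug, 6 of the 9 genes differed between PC3 vehicle and DU145 vehicle at the adjusted p, near the 65.3% of all genes. None of the 9 passed with a log2 difference above 1, where 19.2% of 14394 genes did. With 9 genes this is too few to read as a trait of theirs. PC was higher in PC3 by 0.82 (SE 0.091, adjusted p = 5.8e-07), PCK2 by 0.43 (SE 0.092, adjusted p = 5.8e-04), PYCR1 by 0.29 (SE 0.065, adjusted p = 9.6e-04) and GOT1 by 0.24 (SE 0.057, adjusted p = 0.0013) on the log2 scale. GPT2 was higher by 0.17 (SE 0.066, adjusted p = 0.031), which did not hold without DU145 vehicle replicate 1 or 3 (adjusted p = 0.096 and 0.13). GLUD1 was lower in PC3, by -0.26 (SE 0.048, adjusted p = 1.5e-04).

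Levels of different genes were compared per kilobase of exon. The length was that of all annotated exons of a gene merged, not of the transcripts expressed in these cells. GPT2, for example, had 6354 exonic and 1569 coding bases, and PCK2 4189 and 2362. The order of genes and the size of the ratios between genes therefore also rest on the annotation, and samples that do not overlap do not settle them. The same lengths were used in every group. In PC3 vehicle the order was PYCR1 (73.5 CPM per kilobase), GOT2 (62.8), ALDH18A1 (45.1), GLUD1 (41.4), GOT1 (21.9), GPT2 (7.0), PCK2 (6.98), PC (5.79) and ASNS (0.452). GPT2 and PCK2 were the only neighbours in this order whose samples overlapped. With pentamidine PCK2 stood at 56.5 CPM per kilobase in PC3, next to GOT2 at 57.1, and these 2 overlapped. In DU145 vehicle GOT2 (65.3) and PYCR1 (59.3) came first and PCK2 (5.08) came seventh. With pentamidine PYCR1 led in DU145 too (82.4), and PCK2 (21.1) passed GPT2 (11.8). No neighbours overlapped in either DU145 group. ASNS was last in all 4 groups, at 2.21 and 2.00 CPM per kilobase with pentamidine, and its level rests on the shared exons described above.

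Among the enzymes around these 9 genes, both rises and falls were found in each line. Of 48 listed genes, the isoenzymes included, of asparagine and proline breakdown, glutamine and glutamate, aspartate use, the malate-aspartate shuttle, other aminotransferases and the pyruvate and malate junction, 46 were in the table. In PC3, 34 were tested, 10 were higher and 9 lower, where 21.7% of all genes tested were higher and 21.7% lower, and the median log2 fold change was -0.024. In DU145, 36 were tested, 9 were higher and 6 lower, where 17.2% of all genes were higher and 16.8% lower, and the median was 0.034. Of the 5 shuttle genes beside GOT1 and GOT2, 3 fell and none rose in PC3, and 2 fell and 1 rose in DU145. SLC25A12 and SLC25A13, the mitochondrial aspartate-glutamate carriers, fell by 0.31 and 0.35 in PC3 (adjusted p = 0.0019 and 5.5e-04) and by 0.26 and 0.28 in DU145 (adjusted p = 6.6e-04 and 1.4e-05) on the log2 scale. Beside the isoenzymes, 3 genes of this list passed with the fold change in at least 1 line. PSAT1, the aminotransferase of serine synthesis, rose from 203 ± 4.49 to 903 ± 1.2 CPM in PC3 and from 196 ± 7.92 to 565 ± 11.7 CPM in DU145 (SD, n = 3). ADSS1, which joins aspartate to inosine monophosphate, rose by a log2 fold change of 1.04 in PC3 (adjusted p = 8.5e-05) and 0.76 in DU145 (adjusted p = 0.049). ABAT, the aminotransferase of gamma-aminobutyrate, rose by 1.02 in DU145 (adjusted p = 0.033) on 7 to 13 counts in vehicle and 15 to 27 with pentamidine.

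ATF4 and genes known as its targets, read beside the 9 genes, were mostly higher. Of 22 genes, PSAT1 again among them, 22 rose in PC3 and 21 passed with the fold change, where 21.7% of all genes tested rose and 4.75% passed with the fold change in either direction. Their median log2 fold change was 1.95. In DU145, 21 were tested, 19 rose and 12 passed with the fold change, where 17.2% and 2.03% of all genes did, and the median was 1.09. ATF4 itself rose from 411 ± 22.4 to 895 ± 34.1 CPM in PC3 and from 372 ± 11.8 to 727 ± 22.5 CPM in DU145 (SD, n = 3). The difference between the lines passed for 18 of the 22 genes, each with the smaller value in DU145, where 10.2% of all genes passed in that direction, but not for ATF4 (-0.16, SE 0.061, adjusted p = 0.072). The list was chosen with results of these samples known and is no independent evidence of its direction.

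**Figure D4:**
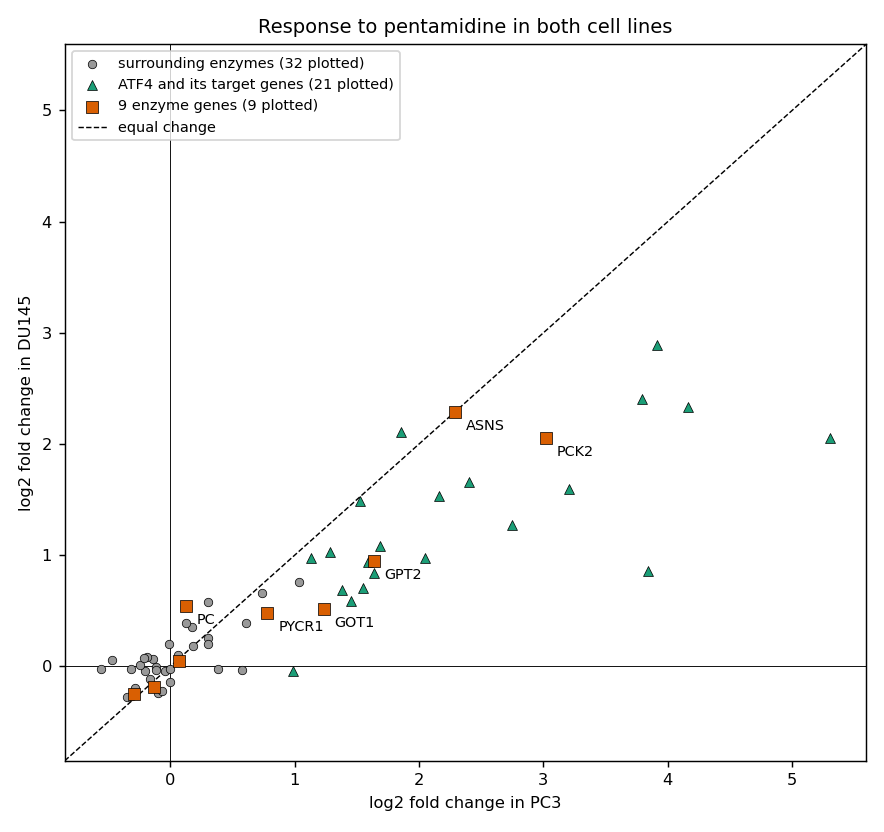
Log2 fold change of pentamidine against vehicle in PC3 (x axis) and DU145 (y axis) for the 9 genes (orange squares), ATF4 and its known targets (green triangles, PSAT1 included) and the surrounding enzymes (grey circles), where tested in both lines; the dashed line marks equal change. Most surrounding enzymes lie near 0, whereas PCK2, GPT2 and GOT1 lie among the green triangles below the line and ASNS lies on it.

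The genes most like each of the 4 that passed with the fold change were those with the smallest root mean square difference of the log2 means of the 4 groups, each gene centred on its own mean, among 15225 genes. They are a description over 4 groups with no test. GPT2 was nearest to GARS, the glycyl-tRNA synthetase, and SLC3A2, the heavy chain of amino acid transporters, each at a distance of 0.041 and 0.042, and then RBCK1 (0.083). ASNS was nearest to ULBP1, a ligand of a natural killer cell receptor (0.12), PSAT1 (0.30) and MTRNR2L12 (0.31). PCK2 was nearest to the metallothionein MT1F (0.19), the pseudokinase TRIB3 (0.26) and NPIPA7 (0.28). GOT1 was nearest to SPRY3 (0.073), CCNB1IP1 (0.079) and AL603756.1 (0.080). MTRNR2L12, MT1F and NPIPA7 have near-identical relatives among which reads can be split, so their values are uncertain. MTRNR2L12, NPIPA7 and AL603756.1 had too few counts to be tested in DU145, so their likeness there rests on low counts.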

How the data were processed

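The submitters' processing notes name HISAT2 2.1.0, GRCh38 and DESeq 1.18.1. The counting program and its use of strand are not given in the sources used here. The authors deposited whole-number counts per gene, without normalization, and this table was the main data here. In another table, which carries the name FPKM, the values the authors deposited are in fact CPM, made by dividing each count by the library total: 100% of 384924 values equalled the count over the library total within 1 part in 100000. It served only limma. The authors' tables of their own fold changes and p-values were not used.

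The count table held 33595 entries with an Ensembl identifier, and 44 rows that were fragments of annotation text were dropped. Entries of 1 name with the same counts were kept once, leaving 32077 genes. Counts were tested with edgeR 4.0.16 (R 4.3.3), with TMM factors, filterByExpr (minimum count 10), the quasi-likelihood test and Benjamini-Hochberg adjustment over all genes tested. The fold threshold was an absolute log2 fold change above 1. Each line was fitted on its own 6 samples, the vehicle groups on theirs, and the interaction on all 12. Levels are CPM scaled by TMM factors. Exon lengths (all annotated exons of a gene merged) and overlaps came from GENCODE release 29, where 8 of the 9 genes, all but GOT1, have the table's start and end. The scripts were tested on simulated data. The confidence intervals are from edgeR's fits and include the spread between samples, whereas the limit of 3 counts beside a count of 0 covers counting error only. Pairs of samples within a group differed by a mean chi-square of 1.67 to 6.70 per gene, above sampling noise. The PC3 vehicle pairs differed most, at 5.51, 6.70 and 3.41, against 1.67 to 2.95 in the other groups.

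The alternatives were DESeq2 1.42.0, RLE factors, library size alone, no mitochondria-encoded genes, no filter, a replicate block, a floor of 10 counts in all samples, an adjusted p of 0.01, limma 3.58.1 on log2(CPM + 1) or log2(CPM + 0.1), 1 fit of all samples, and each sample left out. Genes were named by rule: all 9, their isoenzymes, surrounding enzymes past the fold threshold, and the 3 genes most like each of the 9 that passed it. Some genes of these lists and of the markers are not reported here. SLC25A12 and SLC25A13 were named after their values were seen. The 9 genes and the lists were chosen with earlier results of these data known.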

Additional observations from a re-analysis of the deposited data

Results flagged for a closer look

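The pentamidine response of 5 of the 9 genes differed between the lines by the interaction test over all 12 samples (edgeR, Benjamini-Hochberg over 15226 genes). As the DU145 log2 fold change minus that of PC3, the values were -0.96 for PCK2, -0.72 for GOT1, -0.69 for GPT2, -0.30 for PYCR1 and 0.42 for PC. That of PYCR1 did not pass with limma on log2(CPM + 1) without a filter (-0.23, adjusted p = 0.11). The markers described above do not separate the libraries by the known deletion of CTNNA1 in PC3, and the part of this in the differences was not tested. Groups of 3 samples are too small for a test of single outlying samples.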

How the results depend on the processing

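Of 657 values of the 9 genes under the alternatives, 612 kept their direction and side of the threshold, 11 lost significance, 3 gained it and 31 changed sign. The differences that changed sign did not pass in any setting. Where no sample was left out, the interaction of ASNS was 0.067 (library size alone), 0.00022 (at least 10 counts in every sample), 0.014 (limma on log2(CPM + 1), with and without the filter) and 0.065 (limma on log2(CPM + 0.1)). With library size alone and in those limma fits, the interaction of GOT2 was 0.017, 0.016, 0.016 and 0.016, and that of GLUD1 was 0.043 in each. The vehicle difference of ALDH18A1 was 0.0065 with DESeq2, 0.0012 with RLE, 0.078 with library size alone, 0.016 with no filter, 0.077 with both fits of limma on log2(CPM + 1), 0.078 on log2(CPM + 0.1) and 0.022 with all 12 samples in 1 fit. With 1 sample left out, the interaction ranged from -0.13 to 0.12 for ASNS and from -0.0024 to 0.060 for ALDH18A1, and the vehicle difference from -0.027 to 0.034 for ALDH18A1 and from -0.0077 to 0.24 for ASNS. Of the calls lost, 7 were of GOT2 in PC3, 3 of GPT2 between the vehicle groups and 1 of PYCR1 in the interaction (-0.23, adjusted p = 0.11 with limma on log2(CPM + 1) without a filter). GLUD1 in DU145 gained the call in 3 settings, at a log2 fold change of 0.098 to 0.099. The fold threshold left 4 of 7 calls in PC3, 2 of 8 in DU145, 0 of 5 in the interaction and 0 of 6 between the vehicle groups. The cause of these changes was not tested, except that the fold threshold adds a criterion.

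Same-numbered samples did not deviate together (correlations of -0.073 to 0.039 over 9 pairs), so the numbers were not taken to pair the samples. With the replicate number as a block, 6 of the 9 genes passed in PC3, 8 in DU145, 5 in the interaction and 6 between the vehicle groups, and GOT2 in PC3 was at -0.13 with an adjusted p of 0.073. Of the 9 genes, ASNS had the fewest counts, 22 to 32 in the vehicle samples.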
